A study of Mus musculus with 38 samples.

Results

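Messenger RNA was measured on 38 one-colour arrays labelled as stromal vascular cells, the cells of fat tissue other than its adipocytes, and the 5 arrays of week 6 were set against the 5 arrays of week 15. The other 28 arrays came from days 6, 10 and 14 and weeks 0, 3, 9, 12 and 18. Every array came from C57BL/6J mice and carries the tissue label of epididymal infiltrating macrophages (SVCs), and that label is the only source for the depot. Each week had 1 array per diet, although the design text of the series speaks of 3 biological replicates. LFC was a low fat control diet with 10% of its calories from fat, and HFC was a high fat, high sucrose diet with 60% of its calories from fat. HF5, HF20 and HF75 were that high fat diet with 5, 20 or 75 µg of KAL-1, an ethano-botanical formulation. Mice were weaned at 3 to 4 weeks of age and 5 animals of a group were killed every 3 weeks. Whether an array holds 1 animal or a pool is not given in the sources used here, nor is the meaning of the letters RE in the titles of all 5 arrays of week 6. Week 6 and week 15 differ in age, time on the diet and day of scanning alike, which cannot be told apart. The diet name paired the arrays, and the dose was read from the title and source name because the diet entry of HF5 and HF20 names the other dose at weeks 15 and 18.

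Epididymal fat is a visceral depot of the abdominal cavity. Its stroma is known for the transcription factors Tcf21 and Wt1, and its surface is covered by mesothelium, the flat lining epithelium that makes mesothelin (Msln) and uroplakin 3b (Upk3b). Subcutaneous fat lies under the skin, is known for the T-box factor Tbx15, and can hold a lymph node, nerves and thin sheets of skeletal muscle within or beside it. Lymph nodes are packed with B cells, which carry Cd79a as part of their antigen receptor, with T cells, and with high endothelial venules that make Glycam1, a mucin-like ligand for lymphocyte homing.

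Week 6 and week 15 were chosen on measured levels of these arrays, among them Tbx15, Tcf21, Msln, Upk3b and Cd79a. The differences between the weeks are therefore given as a description, with no test. The level of a probe is the log2 of its processed signal minus the log2 of the array's 75th percentile, so that 0 is the 75th percentile of that array. A probe was counted as apart where all 5 arrays of a week lay above all 5 of the other and the mean paired difference was at least 1 log2, among probes well above background on at least 3 arrays of a week. By that rule 2325 of 31636 probes (7.35%) were higher at week 6 and 2658 (8.4%) were lower. The median difference over all those probes was -0.03 log2. Since each array holds the RNA of mixed cells, fewer cells of a type and less RNA per cell cannot be told apart in any value below.

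The 75th percentile of the signal was 901 to 1287 scanner units at week 6 and 1216 to 1400 at week 15. The share of probes well above background was 65.8% to 71.3% at week 6 and 73% to 81.9% at week 15, so the arrays of week 15 detected more probes. HF75 of week 6 was scanned on another day than the other 4 arrays of its week. LFC lay apart from the other 4 arrays of week 6 in muscle, nerve and mesothelial transcripts, and counts without it are given below. Elsewhere HF5 of week 12 (25.8 scanner units) and HF75 of week 3 (88.4) were much dimmer than the rest.

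The promoters of 5 genes are shown because they stand for the visceral stroma, the mesothelium, the B cell, the lymph node venule and the muscle fibre. Each is the 250 bases before the gene's start, 5′ to 3′ on the strand of the gene, from RefSeq on GRCm38.p6, with capitals for matches on either strand to the E-box CANNTG, the TATA box TATAAA, the GC box GGGCGG and the octamer ATTTGCAT. Tcf21 lies at chr10:22820144-22820393 (minus strand), Upk3b at chr5:136038246-136038495 (plus), Cd79a at chr7:24897247-24897496 (plus), Glycam1 at chr15:103565082-103565331 (minus) and Ckmt2 at chr13:91876886-91877135 (minus).
Tcf21: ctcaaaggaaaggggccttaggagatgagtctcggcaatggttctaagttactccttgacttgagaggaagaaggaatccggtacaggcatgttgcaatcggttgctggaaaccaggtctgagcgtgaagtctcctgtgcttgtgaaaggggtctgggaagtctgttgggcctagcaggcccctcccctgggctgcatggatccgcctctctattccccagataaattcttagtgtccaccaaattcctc
Upk3b: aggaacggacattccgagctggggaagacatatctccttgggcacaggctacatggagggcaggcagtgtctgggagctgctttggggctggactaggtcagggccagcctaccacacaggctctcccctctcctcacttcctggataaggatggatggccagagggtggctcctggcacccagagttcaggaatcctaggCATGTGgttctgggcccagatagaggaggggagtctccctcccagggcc
Cd79a: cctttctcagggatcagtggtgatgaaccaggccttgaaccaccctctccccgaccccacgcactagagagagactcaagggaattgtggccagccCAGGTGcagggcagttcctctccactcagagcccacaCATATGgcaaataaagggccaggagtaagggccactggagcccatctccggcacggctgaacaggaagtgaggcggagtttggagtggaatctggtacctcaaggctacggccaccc
Glycam1: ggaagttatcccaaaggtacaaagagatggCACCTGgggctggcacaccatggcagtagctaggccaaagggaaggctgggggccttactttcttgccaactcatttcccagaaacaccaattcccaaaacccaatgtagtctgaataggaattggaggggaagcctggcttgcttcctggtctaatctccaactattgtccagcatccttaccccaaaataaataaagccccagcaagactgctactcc
Ckmt2: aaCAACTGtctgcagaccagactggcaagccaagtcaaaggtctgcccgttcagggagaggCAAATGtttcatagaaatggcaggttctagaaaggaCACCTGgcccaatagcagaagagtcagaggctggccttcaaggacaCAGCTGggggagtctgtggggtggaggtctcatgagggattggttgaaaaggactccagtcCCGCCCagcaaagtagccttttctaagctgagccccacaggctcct
Ckmt2, the mitochondrial creatine kinase of striated muscle, held 4 E-boxes and 1 GC box, Cd79a held 2 E-boxes, and Upk3b and Glycam1 held 1 E-box each. Tcf21 held none of the 4 motifs. Of 32851 promoter windows of the same length, 66.2% held an E-box, 32.7% a GC box, 12.4% a TATA box and 1.6% an octamer, so that a match to the first 2 motifs was common. These matches describe the letters and are not binding sites.

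Tbx15, a marker of subcutaneous and other non-visceral fat stroma, was high on all 5 arrays of week 6. Its level was -1.91 in LFC, -1.59 in HFC, -1.25 in HF5, -0.31 in HF20 and -0.19 in HF75. At week 15 the same diets read -5.18, -5.55, -7.04, -6.20 and -6.27. The weeks did not overlap, and the mean paired difference was 5.00 log2 (SD 1.29, n = 5 pairs), a 32.0-fold difference. A second Tbx15 probe was not well above background on any array of week 15 and was at least 94.4-fold higher at week 6. A further probe, with a difference of 2.53 log2, was not apart. Which cells made the Tbx15 RNA was not tested.

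Tcf21, a transcription factor of visceral stroma, ran the other way. Its level at week 6 was -1.79 in LFC, -4.36 in HFC, -6.28 in HF5, -8.56 in HF20 and -5.90 in HF75, and it was well above background on 3 of these 5 arrays. At week 15 it was 0.03 in LFC, -0.10 in HFC, -0.23 in HF5, 0.88 in HF20 and 0.61 in HF75. Every array of week 15 lay above every array of week 6, with a mean difference of -5.61 log2 (SD 2.82, n = 5 pairs). The spread at week 6 was wide, from LFC down to HF20, and values of the arrays not above background have no order among themselves. In Tbx15 and Tcf21 the arrays of week 6 lay opposite to what is known of visceral stroma, LFC least so. Both genes were among the levels on which the weeks were chosen, so they cannot test the epididymal label. Gata6, Sfrp2 and Hoxc9, given below, did not separate the weeks. The epididymis gene Crisp1, also given below, was high in LFC and HFC of week 6.

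**Figure D1:**
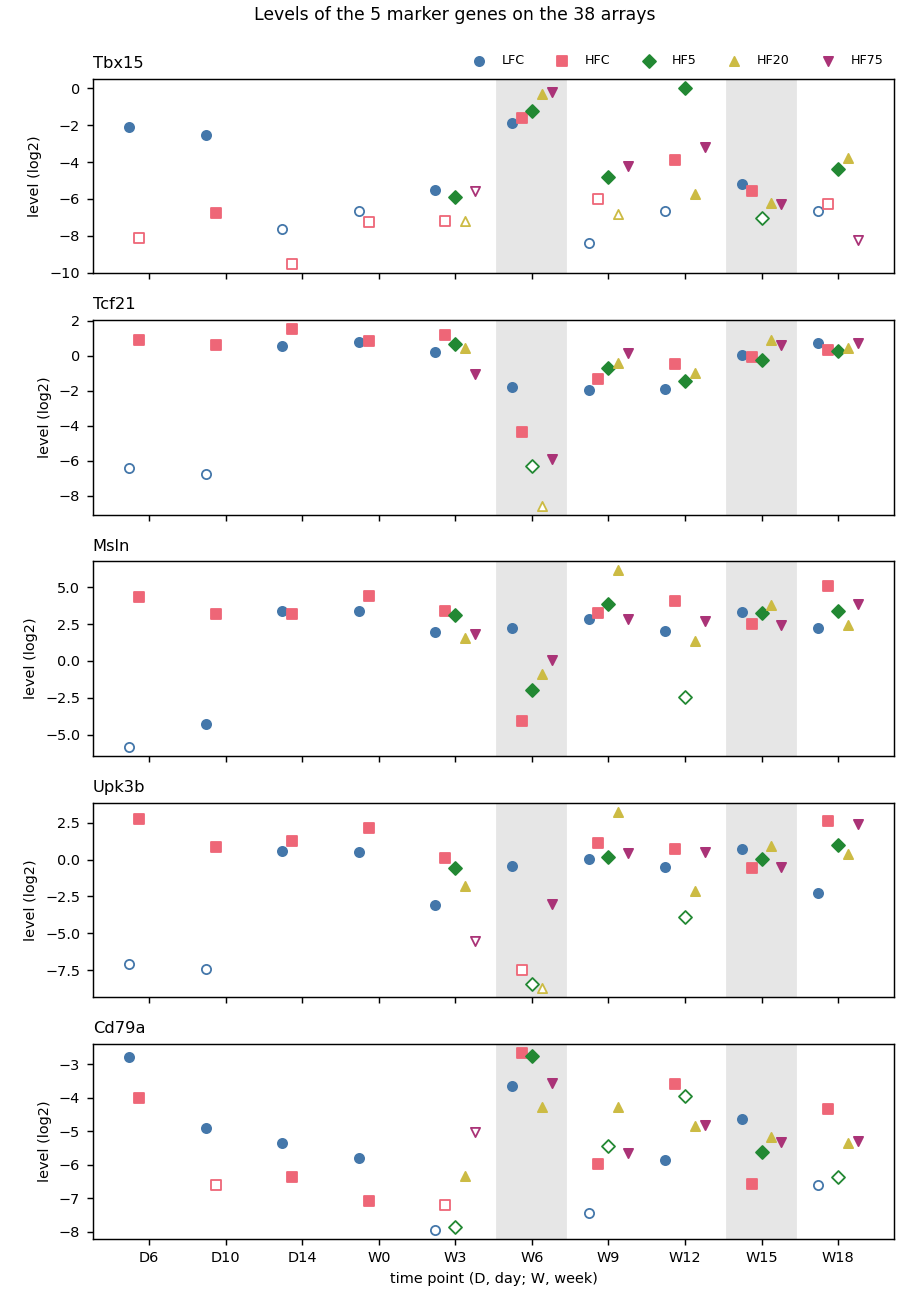
Level (log2, relative to the 75th percentile of the array) of Tbx15, Tcf21, Msln, Upk3b and Cd79a on the 38 arrays by time point, 1 point per array. Filled points are well above background, open points are not, and the grey bands mark weeks 6 and 15. Tbx15 lay between -1.91 and -0.19 at week 6 and between -7.04 and -5.18 at week 15.

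The visceral list (Tcf21, Wt1, Bnc1, Nr2f1, Gata4, Gata6, Isl1) had 4 of 7 members lower at week 6 and 0 higher, beside the 8.4% of all probes that were lower. Its median difference was -2.63 log2 (SD 1.24 over the medians of 5 pairs). Under a normexp background correction the median was -0.50 and 2 members were lower, and the members above background on all 10 arrays had a median of -0.98. Wt1, a zinc finger factor of visceral stroma and mesothelium, fell from a mean of 0.68 (SD 0.33, n = 5) at week 15 to -4.74 (SD 1.98, n = 5) at week 6, with LFC the highest array of week 6 at -1.73. Bnc1, a factor of mesothelium and other epithelia, differed by -4.48 log2 (SD 2.30), with 2 of 5 arrays of week 6 above background, and Isl1, a LIM homeobox factor, by -2.63 (SD 1.45). Gata6, a zinc finger factor of visceral tissues, was well above background on all 10 arrays, differed by -0.98 log2 (SD 0.72) and was not apart. Gata4 was below the filter, on 1 array of week 6 and 2 of week 15.

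The subcutaneous list (Tbx15, Shox2, En1, Sfrp2, Hoxc9, Hoxc10) had 2 of 6 members higher at week 6, beside 7.35% of all probes, with a median difference of 1.16 log2 (SD 0.55), or 0.54 for the members above background on all 10 arrays. Both were developmental factors: Tbx15 above, and Hoxc10, a homeobox gene of the caudal body, which lay between -3.24 and -2.86 at week 6 and between -5.17 and -3.97 at week 15 (difference 1.35, SD 0.53). Shox2, a homeobox factor of limb and subcutaneous fat, differed by 2.68 log2 (SD 2.26) but LFC of week 15 at -5.38 lay above LFC of week 6 at -5.70. Sfrp2, a secreted Wnt modulator, differed by 0.54 log2 (SD 1.07), and Hoxc9 by 0.14. En1 was not well above background on any of the 10 arrays.

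Hox genes record position along the body axis, and 11 of 39 (28.2%) were lower at week 6, beside 8.4% of all probes. Only Hoxc10 was higher. The 11 were Hoxa2, Hoxa4, Hoxa5, Hoxa6, Hoxa7, Hoxb2, Hoxb3, Hoxc4, Hoxc5, Hoxc6 and Hoxc8. Hoxa5 showed the largest difference of the list among members apart: -4.80, -4.34, -4.17, -3.82 and -2.77 at week 6 in LFC, HFC, HF5, HF20 and HF75, and -0.90, -1.05, -0.65, -0.58 and -0.82 at week 15. Those groups did not overlap, and the difference was -3.18 log2 (SD 0.74). Hoxc4 differed by -2.63 (SD 0.81), Hoxa7 by -2.19 (SD 0.70) and Hoxa6 by -1.94 (SD 0.43). Hoxb7, the Hox gene of highest mean level that was not apart, differed by -1.56 (SD 1.55). Without LFC 18 Hox genes were lower (46.2%, beside 12.5% of all probes). Under normexp 4 were lower (10.3%, beside 3.05%), with Hoxa6 then 0.16 log2 higher at week 6. Against weeks 3, 9, 12 and 18 the list gave 9, 5, 2 and 5 of 39 lower (23.1%, 12.8%, 5.13% and 12.8%). Of all probes 8.19%, 4.28%, 9.4% and 7.29% were lower there. Low Hox levels were shared with week 9: the mean level was -3.88 at week 6, -3.78 at week 9 and -2.90 at week 15.

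Mesothelial transcripts were low on 4 arrays of week 6 and nearer to the levels of week 15 on the LFC array. Msln was 2.21 in LFC, -4.07 in HFC, -1.96 in HF5, -0.89 in HF20 and 0.08 in HF75 at week 6, against 3.34, 2.49, 3.24, 3.77 and 2.43 at week 15. The difference of -3.98 log2 (SD 2.21, n = 5 pairs) kept the weeks apart, with LFC of week 6 and HF75 of week 15 the closest arrays across them. Upk3b was -0.46 in LFC, -7.52 in HFC, -8.43 in HF5, -8.75 in HF20 and -3.03 in HF75 at week 6, and 0.74, -0.56, 0.01, 0.91 and -0.50 at week 15. Its mean difference was -5.75 log2 (SD 3.71), yet it was not apart, because LFC of week 6 lay above HFC and HF75 of week 15.

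Of the 13 mesothelial genes 5 (38.5%) were lower at week 6, beside 8.4% of all probes, and 0 were higher. The median difference of the list was -4.25 log2 (SD 1.67), or -2.12 under normexp. Muc16, a cell surface mucin, differed by -6.12 (SD 2.86), Lrrn4, a leucine-rich repeat protein of mesothelium, by -4.89 (SD 2.30), and Rspo1, a secreted amplifier of Wnt signalling, by -4.25 (SD 1.39). The other probe of Muc16 differed by 0.66, in the opposite direction. Cldn15, a tight junction claudin, differed by -2.31 (SD 0.95). Muc16 and Upk3b were well above background on 2 of the 5 arrays of week 6 and Lrrn4 on 3, so that their differences and SDs rest in part on values not above background. Krt18, a keratin of simple epithelia, was 4.98 in LFC at week 6 against -1.93 to 1.26 on the other 4 arrays of that week and 4.18 to 5.88 at week 15. The mean level over the 13 genes, called the mesothelial score, was 0.23 in LFC and -3.99 to -1.94 in the other 4 arrays of week 6, and 0.79 to 1.67 at week 15. Without the LFC pair 11 of the 13 genes were lower (84.6%, beside 12.5% of all probes).

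Cd79a was -3.66 in LFC, -2.66 in HFC, -2.75 in HF5, -4.28 in HF20 and -3.56 in HF75 at week 6. At week 15 it was -4.62, -6.56, -5.62, -5.16 and -5.31. All arrays of week 6 lay higher, by 2.08 log2 on average (SD 1.30, n = 5 pairs), and HF20 of week 6 and LFC of week 15 were separated by the smallest gap. The wider B cell list moved with it. Of 19 B cell genes on the array 16 (84.2%) were higher at week 6, beside 7.35% of all probes, and 0 were lower. The median difference was 3.08 log2 (SD 1.20).

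Fcer2a, the low affinity IgE receptor of mature B cells, showed the largest difference of the B cell genes. It was 0.84, 1.68, 1.68, 0.63 and -0.48 at week 6 in LFC, HFC, HF5, HF20 and HF75, and -5.21, -5.81, -6.16, -5.81 and -5.31 at week 15. The groups lay far apart, with a mean difference of 6.53 log2 (SD 1.20), a 92.2-fold difference. Cr2, the complement receptor of B cells and follicular dendritic cells, differed by 5.80 (SD 0.57) and the inhibitory receptor Cd22 by 4.20 (SD 1.0). The 3 members not apart were Pou2af1 (1.84), the adaptor Blnk (-0.12, SD 0.63) and Jchain (-0.26), the chain that joins secreted immunoglobulins and is made by plasma cells. Blnk is also made by macrophages.

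T cell genes were likewise higher at week 6, 16 of 20 (80%), beside 7.35% of all probes, with 0 lower. Their median difference was 3.02 log2 (SD 1.40). Cd8b1, a chain of the CD8 co-receptor, was 0.79, 1.55, 0.60, 0.18 and -1.98 at week 6 and -4.40, -5.75, -4.90, -2.94 and -5.46 at week 15. HF75 was the lowest array of week 6 and HF20 the highest of week 15, and the difference was 4.92 log2 (SD 1.69). Cd8a differed by 3.94 (SD 1.57), the co-stimulatory receptor Icos by 3.74 (SD 1.65) and Ubash3a, a regulator of T cell receptor signalling, by 3.63 (SD 1.17). Cd3e, Cd3g, Cd4 and Themis were not apart, with differences of 1.01, 2.60, 0.76 and 1.63.

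Among 10 genes of lymph node stroma and homing, 4 (40%) were higher at week 6, beside 7.35% of all probes, and 0 were lower. Their median difference was 0.81 log2 (SD 0.56). Glycam1 had the largest positive difference of any named gene. It was 3.60 in LFC, 5.25 in HFC, 4.87 in HF5, 3.59 in HF20 and 3.73 in HF75 at week 6, and -6.81, -6.27, -6.99, -6.33 and -6.42 at week 15, where 3 of 5 arrays were well above background. The difference was 10.78 log2 (SD 0.86, n = 5 pairs), or 1752-fold. Ccr7, the receptor that guides lymphocytes and dendritic cells into nodes, differed by 5.20 (SD 1.30) and lymphotoxin beta (Ltb) by 3.52 (SD 0.59).

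The chemokines of node stroma did not follow. Ccl21c, a ligand of Ccr7, was 3.65, 5.22, 4.56, 4.65 and 2.61 at week 6 and 2.81, 4.21, 3.43, 4.57 and 3.79 at week 15, so the weeks overlapped (difference 0.38, SD 0.96). Ccl19 differed by -0.01 and Cxcl13, the chemokine of B cell follicles, by -0.17. Madcam1, an addressin of mucosal venules and follicular stroma, differed by 0.12, Il7 by -0.61 and Chst4, a sulfotransferase of high endothelial venules, by 1.25, none apart. Ltb and Ccr7, apart as Glycam1 was, are made by lymphocytes themselves.

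Skeletal muscle transcripts were higher at week 6. Of 33 muscle genes 22 (66.7%) were higher, beside 7.35% of all probes, and 0 were lower. The median difference was 3.16 log2 (SD 2.08). Ckmt2 was 1.68, -2.18, -1.31, -1.03 and -2.11 at week 6 in LFC, HFC, HF5, HF20 and HF75 and was not well above background on any array of week 15, so that it was at least 129-fold higher at week 6. Pvalb, a calcium buffer of fast fibres, was 2.13, -0.69, -0.43, 0.23 and -0.83 against -8.65, -8.98, -8.89, -6.73 and -6.97, with 1 of 5 arrays of week 15 above background. Myh4, the fast 2B myosin heavy chain, differed by 7.75 log2 (SD 1.50) on the list's probe, and was highest in HF20 of week 6 at 4.29. Tnnt3, fast troponin T, differed by 6.33 (SD 2.05).

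The muscle score, the mean level of the 33 genes, was 3.50 in LFC, -0.86 in HFC, -0.55 in HF5, -0.11 in HF20 and -0.43 in HF75 at week 6, and -3.37 to -2.68 at week 15. LFC was thus far above the other arrays of its week, while those 4 arrays also lay above all of week 15. Acta1, skeletal alpha actin, was likewise highest in LFC, at 6.36, and 2.96 to 3.52 in the other diets of week 6, and was not apart from week 15 at 0.80 to 3.01 (difference 1.94, SD 1.84). Ttn, the giant sarcomere protein titin, had 8 probes that disagreed: the list's probe differed by -2.08 and the other 7 by -1.69 to 6.92. Without LFC 24 muscle genes were higher (72.7%, beside 9.46% of all probes) and 3 lower (9.09%, beside 12.5%). Without HF75, the array of week 6 scanned on another day, 24 muscle, 17 B cell, 18 T cell, 4 lymph node and 6 Schwann cell genes were higher. The share of all probes that were higher was then 9.4%.

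**Figure D2:**
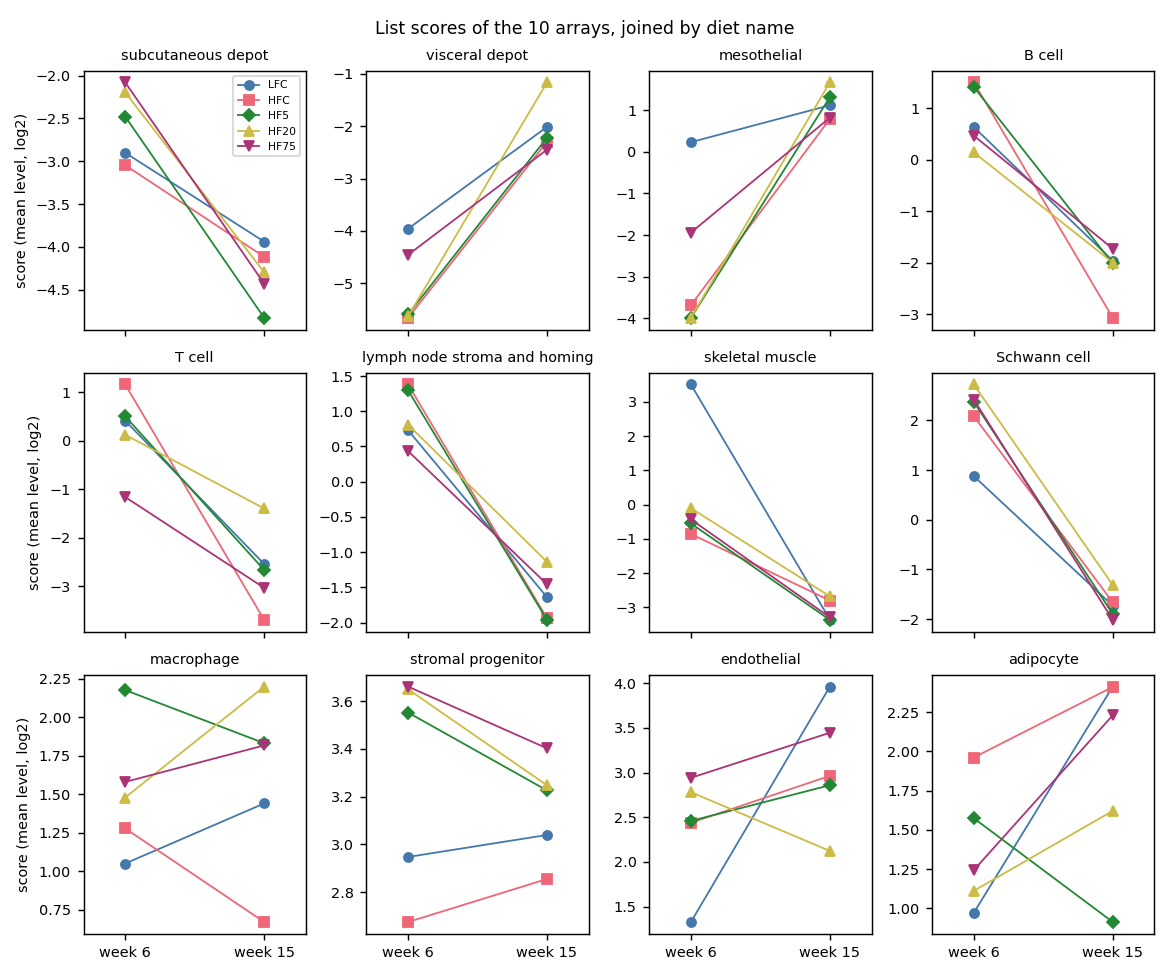
Mean level (log2) of the genes of 12 lists on each array of week 6 and week 15, 1 point per array, with lines that join the arrays of a diet and an axis range of its own in each panel. The B cell, T cell, lymph node, skeletal muscle and Schwann cell scores of week 6 lay above all arrays of week 15, and the visceral and mesothelial scores lay below.

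Schwann cells wrap the axons of peripheral nerves in myelin. At week 6, 6 of 7 of their genes (85.7%) were higher, beside 7.35% of all probes, and 0 were lower. The median difference was 4.05 log2 (SD 0.91). Prx (periaxin), a scaffold protein of peripheral myelin, was 1.60, 2.36, 3.55, 3.96 and 3.71 at week 6 and between -3.59 and -3.17 at week 15, a difference of 6.32 log2 (SD 1.10). Sox10, the transcription factor of the neural crest and glia, differed by 4.83 (SD 0.68). LFC was the lowest array of week 6 for both genes, the reverse of its place among the muscle genes. Mbp, myelin basic protein, was not apart on the list's probe (0.73, SD 0.60), whereas its other probes differed by 6.92 to 7.73.

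The cells named in the tissue label were present at both weeks and did not separate them. All 17 macrophage genes were well above background on all 10 arrays, 0 were apart, and their median difference was 0.09 log2 (SD 0.44). Adgre1 (F4/80), the classic mouse macrophage marker, was 0.55, 0.65, 1.99, 1.0 and 1.97 at week 6 and 2.0, 0.84, 1.73, 3.24 and 2.72 at week 15. Those ranges overlapped, with a difference of -0.87 (SD 0.99). Lyz2, macrophage lysozyme, was near the top of the scale at both weeks (difference 0.09, SD 0.27) and saturated on most arrays, so its values are lower bounds.

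None of the 15 stromal progenitor genes was apart (median 0.27 log2), and Dcn (decorin), a matrix proteoglycan, differed by 0.27 (SD 0.26) with saturated spots. In the endothelial list 1 of 13 genes (7.69%) was lower at week 6, beside 8.4% of all probes: Kdr, the main VEGF receptor, at 1.07 to 2.44 against 2.81 to 4.66 (difference -2.12, SD 0.93), and the median was -0.86. Without HF20 6 endothelial genes were lower (46.2%, beside 9.72% of all probes) and without HF75 4 were (30.8%, beside 11.1%). Vwf, von Willebrand factor, differed by 0.40 (SD 0.70). The 14 adipocyte genes gave 0 apart and a median of -0.43, and Fabp4, the fatty acid carrier of adipocytes, differed by 0.22 (SD 0.15) with saturated spots, a sign that turned under both other normalizations.

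**Figure D3:**
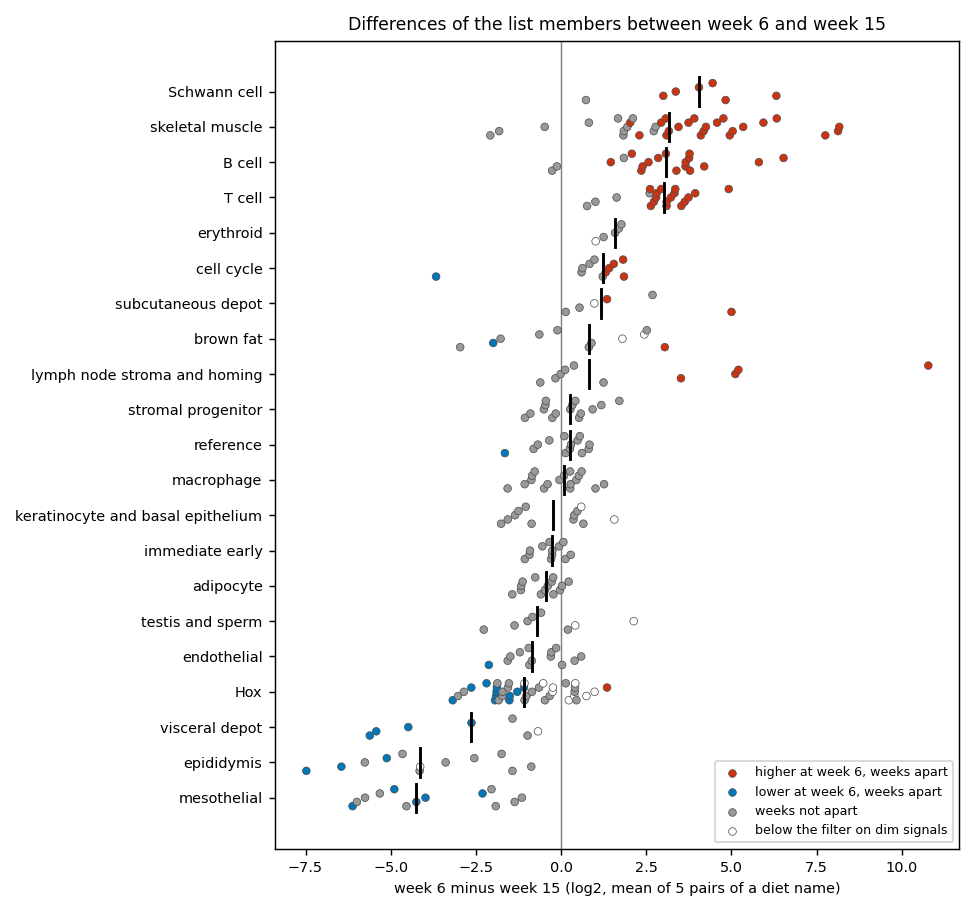
Mean paired difference of each list member, week 6 minus week 15 (log2), by list, with black bars for list medians. Red and blue points are members apart and higher or lower at week 6, grey points are not apart, and open points are below the filter. Most B cell, T cell, muscle and Schwann cell members lay to the right of 0, the mesothelial and visceral members to the left, and the macrophage members around 0.

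Genes of the epididymis, the duct beside this fat pad, were lowest among the 10 arrays on HF5, HF20 and HF75 of week 6. Their mean level there was -7.61, -7.79 and -7.57, with 1, 3 and 1 of 12 genes well above background. Outside these weeks, HFC of week 9 (-7.61) and LFC of week 12 (-7.58) were as low. Crisp1, a secreted protein of the duct, was 6.36 in LFC and 5.69 in HFC but -8.27 in HF5, -8.64 in HF20 and -6.71 in HF75, against 3.62, 5.64, 4.45, 3.66 and -0.13 at week 15. It was not apart. Of 12 epididymis genes 3 were lower at week 6: the antimicrobial Spag11b (at least 101-fold), the lipocalin Lcn5 (at least 41.2-fold) and the cystatin Cst11 (at least 20.2-fold), none of them above background at week 6. The 3 made up 25% of the list, beside 8.4% of all probes, and under normexp 0 of the 12 were apart. The testis and sperm list gave 0 of 8 apart, and Prm1, a sperm protamine, ran from -4.52 to 2.76 at week 6 and from -1.31 to 2.52 at week 15.

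Cell cycle genes were higher at week 6 in 5 of 11 cases (45.5%, beside 7.35% of all probes), with a median difference of 1.22 log2. The 5 were Top2a, Ccnb1, Ccna2, Cdk1 and Plk1. Plk1, a mitotic kinase, differed by 1.84 (SD 0.47), cyclin A2 (Ccna2) by 1.82 (SD 0.34) and cyclin B1 (Ccnb1) by 1.55 (SD 0.76), while Mki67 differed by 0.63 (SD 0.47) and overlapped. Without HF20 8 of these genes were higher (72.7%, beside 8.21% of all probes). Against weeks 3, 9, 12 and 18 the list gave 0, 1, 0 and 0 of 11 higher, and its mean level was -1.54 at week 6, -2.32 at week 15 and -1.56 over the other 28 arrays. Kif11, a mitotic motor, was lower on the list's probe, at least 9.33-fold, and higher by 1.74 log2 on its other probe. In the brown fat list 1 of 11 genes was higher and 1 lower (9.09% each), beside 7.35% and 8.4% of all probes. Cox8b, a cytochrome oxidase subunit also made in muscle, was higher by 3.04 (SD 1.60), with LFC of week 6 the highest array at 2.58. The coactivator Ppargc1a was lower, with a difference of -1.99 (SD 1.10). Without LFC 2 brown fat genes were higher (18.2%, beside 9.46% of all probes) and 3 lower (27.3%, beside 12.5%). Without HFC 4 were higher (36.4%, beside 7.62%), and without HF20 3 were (27.3%, beside 8.21%). Cox7a1, a muscle and brown fat form of a cytochrome oxidase subunit, differed by 0.81 (SD 1.09).

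The keratinocyte, immediate early and erythroid lists gave 0 members apart, with medians of -0.25, -0.28 and 1.58 log2. Sfn (stratifin) of the keratinocyte list differed by 0.36 (SD 0.25), Junb by 0.28 (SD 0.26) and the beta globin Hbb-bt by 1.25 (SD 1.12). Of 13 reference genes 1 (7.69%) was lower, beside 8.4% of all probes, and 0 were higher. It was the 14-3-3 protein Ywhaz, at 0.80 to 2.0 against 2.65 to 3.11 (difference -1.65, SD 0.60). B2m differed by 0.14 (SD 0.34). The median of the reference list was 0.26 log2.

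Over the whole array, the 15 named genes with the largest positive difference were picked among those well above background on all 5 arrays of week 6. They were Glycam1, Ckmt2, Pvalb, Myh4, Xirp2, Mbp, Mlip, Ugt8a, Fgf4, Smco3, Ttn, Tbx15, Atp2a1, Fcer2a and Drp2, of which Ckmt2, Pvalb, Myh4, Ttn and Atp2a1 are members of the muscle list and Mbp of the Schwann cell list. The probes of Mbp, Ttn, Myh4, Tbx15 and Atp2a1 here were not those used for the lists. Ugt8a, the enzyme that makes galactolipids of myelin, was 166-fold higher, and Drp2, a partner of periaxin, 88.7-fold. Xirp2, an actin-binding protein of striated muscle, was at least 110-fold higher and Mlip, a muscle lamin-interacting protein, 187-fold. Fgf4, a growth factor, was at least 98.6-fold higher.

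The 15 genes with the largest negative difference, picked in the same way from week 15, included Tmem212, Ccdc153, Calml3, Aadac, Prss56, Dynlrb2, Igfbp1, Nlrp6, 1600029I14Rik, Erich4, Efcab10, Slc7a9 and Cfap65. Ccdc153, an axonemal protein, was -5.56, -6.25, -4.83, -6.47 and -6.97 at week 6 and 2.04, 4.25, 4.22, 3.24 and 3.34 at week 15, a difference of -9.43 log2 (SD 1.17). Tmem212 was at least 635-fold lower. Dynlrb2, a dynein light chain, differed by -8.33 (SD 2.40) and Cfap65, a protein of cilia and flagella, by -7.63 (SD 2.49). At week 6 Ccdc153 was well above background on 2 of 5 arrays, and Dynlrb2 and Cfap65 on 1 each. The differences and SDs of these 3 genes therefore rest largely on values not above background. These are single genes picked by the size of the difference, and no list of ciliary or epithelial genes was counted.

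Week 6 was also set against each of the other weeks, in comparisons that share the 5 arrays of week 6. Probes higher at week 6 made up 9.87% against week 3, 6.1% against week 9, 3.42% against week 12 and 5.14% against week 18, and probes lower made up 8.19%, 4.28%, 9.4% and 7.29%. The B cell list gave 17 of 19 members higher against week 3, 13 against week 9, 15 against week 12 and 15 against week 18, with medians of 4.63, 3.44, 3.93 and 3.52 log2. T cell members higher numbered 18, 0, 12 and 12 of 20, with medians of 3.39, 2.07, 3.50 and 2.79. The lymph node list gave 6, 5, 6 and 4 of 10.

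Muscle members were higher in 20 of 33 cases against week 3, 12 against week 9, 0 against week 12 and 24 against week 18, and Schwann cell members in 7, 5, 0 and 5 of 7. The counts of 0 at week 12 went with 1 dim array, HF5 of week 12. Its muscle score was 2.76, its Schwann cell score 2.29 and its Tbx15 level 0.03. The same array had a brown fat score of 2.45, a visceral score of -2.29 and Tcf21 at -1.43. Medians against week 12 were still 1.60 log2 for muscle and 2.99 for Schwann cells. Mesothelial members were lower in 3, 6, 0 and 7 of 13 and visceral members in 1, 2, 0 and 5 of 7, with medians of -3.29, -4.24, -2.57 and -4.59 for the mesothelial list. Subcutaneous members were higher in 2, 2, 1 and 3 of 6, and 1 was lower against week 9. Under normexp the subcutaneous median was -0.16 against week 3 and -0.47 against week 9.

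**Figure D4:**
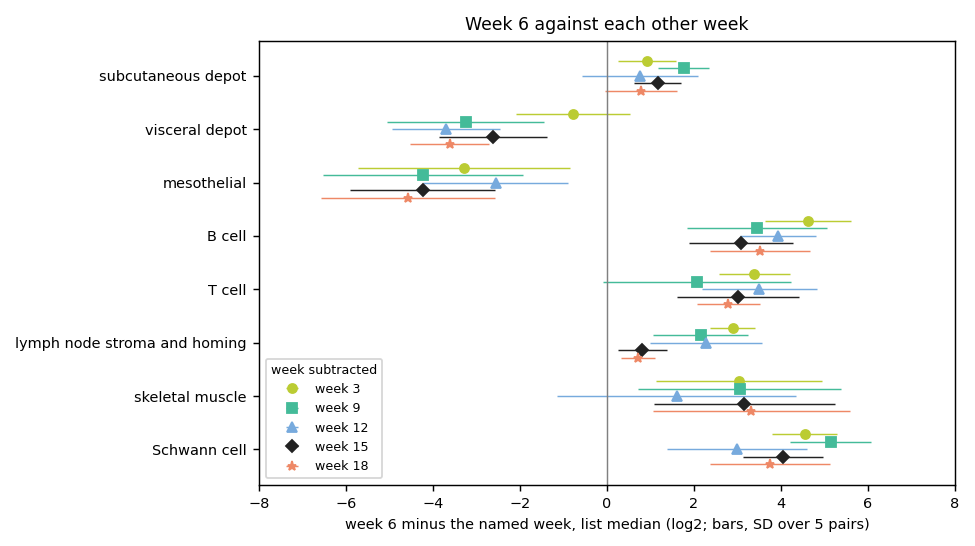
Median difference over the members of 8 lists, week 6 minus each of weeks 3, 9, 12, 15 and 18 (log2), with bars for the SD of the medians of 5 diet pairs. The B cell medians lay between 3.08 and 4.63, and the mesothelial medians between -4.59 and -2.57.

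Against the mean of weeks 3, 9, 12 and 18, 6.36% of 33498 probes were higher and 9.11% lower. By that measure 18 of 19 B cell, 16 of 20 T cell, 5 of 10 lymph node, 23 of 33 muscle and 5 of 7 Schwann cell genes were higher, with medians of 3.70, 2.92, 1.57, 2.83 and 4.19 log2. Mesothelial and visceral genes were lower in 4 of 13 and 4 of 7 cases, with medians of -3.93 and -2.53. A stricter count asked for probes apart from week 15 that also lay beyond all 25 arrays of weeks 3 to 18 other than week 6. It held 290 probes (0.917%) higher and 153 (0.484%) lower. In the B cell list 11 of 19 genes met it (among them Cd79b, Cd22, Fcer2a, Cr2, Vpreb3, Fcrla, Spib, Tnfrsf13c, Cxcr5 and Bank1), and in the lymph node list 4 of 10 did (Glycam1, Ltb and Ccr7 among them). No member of the other lists did on the probe used for its list, while Tcf7 and Bcl11b of the T cell list did on another probe. Days 6, 10 and 14 and week 0 were outside that count. LFC of day 6 lay within the range of week 6 in its T cell (0.18) and muscle (-0.70) scores. Its Schwann cell (1.65), mesothelial (-3.37) and visceral (-5.07) scores did so too. Its B cell score, -0.19, lay below the 0.15 to 1.51 of week 6. LFC of day 10 was as low in mesothelial (-4.25) and visceral (-5.43) scores, but not as high in muscle (-1.72) or Schwann cell (0.31) scores. LFC of day 6 had a lymph node score of 1.37, within the 0.44 to 1.38 of week 6, with Glycam1 at 5.29, Ltb at 4.83 and Ccr7 at 3.93. Glycam1 was -5.56 or below on the other 7 early arrays. Beyond all 33 other arrays, a count added after these values were seen, lay 107 probes (0.338%) higher and 77 (0.243%) lower, with 9 of 19 B cell and 1 of 10 lymph node genes among the former.

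The 28 arrays outside weeks 6 and 15 were used to ask whether Tbx15 moved with the same lists outside the compared weeks. The genes and lists were chosen with earlier results of this series known, so these arrays are not an independent check. Correlations were tested by permutation, two-sided, and adjusted over 10 relations. LFC of day 6 and LFC of day 10 stood apart from the other 26 arrays in Tcf21 (-6.42 and -6.77 against -1.94 or above). The Tcf21, visceral and mesothelial relations are therefore also given within the 26 arrays, a cut that was not planned. Both those arrays had high Tbx15 (-2.12 and -2.52), as had the arrays of week 6. Arrays of a time point or a diet are related to each other, which these tests do not take into account.

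Tbx15 rose with the muscle score across the 28 arrays (Pearson r = 0.74, permutation adjusted p = 0.0004; Spearman rho = 0.64, adjusted p = 0.0054). Centred within each time point the relation was r = 0.70 (permutation adjusted p = 0.0002). Without LFC of day 6 and HF5 of week 12, the arrays farthest from the median Tbx15 level, it was 0.52 (adjusted p = 0.0418). Leaving out HF5 of week 12 together with LFC of days 6 and 10 gave r = 0.47 with a permutation adjusted p of 0.0906, which misses the threshold, so the call rests in part on those 3 arrays.

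The other subcutaneous genes rose with Tbx15 by r = 0.49 (permutation adjusted p = 0.0213; rho = 0.45, adjusted p = 0.0419). Without the 2 arrays farthest from the median r was 0.29 (adjusted p = 0.312), and under quantile normalization it was -0.02. Without LFC of days 6 and 10 it was 0.68 (permutation adjusted p = 0.0007), and without those and HF5 of week 12 it was 0.55 (permutation adjusted p = 0.041), so the call moved with the arrays and the scaling used. Centred within time points it was 0.50 (permutation adjusted p = 0.0172). The score averages its genes whether or not they were above background, and a signal near background reads higher on a dim array. HF5 of week 12, the dimmest array (25.8 scanner units), had both the highest score of these genes (-1.98) and the highest Tbx15 level (0.03). How far dimness entered this relation was not tested. The B cell score (r = 0.38, rho = 0.39, adjusted p = 0.0887 and 0.0853), the T cell score (r = 0.24, rho = 0.20, adjusted p = 0.266 and 0.426) and the lymph node score (r = 0.32, rho = 0.18, adjusted p = 0.161 and 0.426) did not pass. Centred within time points the lymph node relation was 0.43 (permutation adjusted p = 0.0402) and, without the 2 farthest arrays, 0.12 (adjusted p = 0.70). The macrophage score gave r = -0.05 (rho = 0.02) and the adipocyte score r = 0.23 (rho = 0.24), neither past the threshold.

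Over all 28 arrays the mesothelial score gave Pearson r = -0.62 (permutation adjusted p = 0.0026) and rho = -0.48 (adjusted p = 0.037). Tcf21, over 27 arrays, gave r = -0.58 (permutation adjusted p = 0.0112) and rho = -0.58 (adjusted p = 0.0088). The visceral score without Tcf21 gave r = -0.23 (permutation adjusted p = 0.266). Within the 26 arrays the mesothelial score fell with Tbx15 by Pearson r = -0.49 (permutation adjusted p = 0.0459), but rho was -0.36 (adjusted p = 0.151). There the value centred within time points was -0.28 (adjusted p = 0.358), and without HF5 of week 12 r was -0.19 (adjusted p = 0.49). Tcf21, over 25 arrays since it was missing on HF75 of week 12, gave r = -0.38 (permutation adjusted p = 0.149; rho = -0.48, adjusted p = 0.0528) and 0.05 when centred. Within the 26 arrays the visceral score without Tcf21 gave r = 0.09 (rho = 0.01). With HF5 of week 12 also set aside, Tcf21 gave r = -0.25 (permutation adjusted p = 0.49) and rho = -0.45 (adjusted p = 0.103). The mesothelial and Tcf21 relations thus did not pass without the 2 early LFC arrays and HF5 of week 12. The visceral relation had not passed over all 28 arrays.

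**Figure D5:**
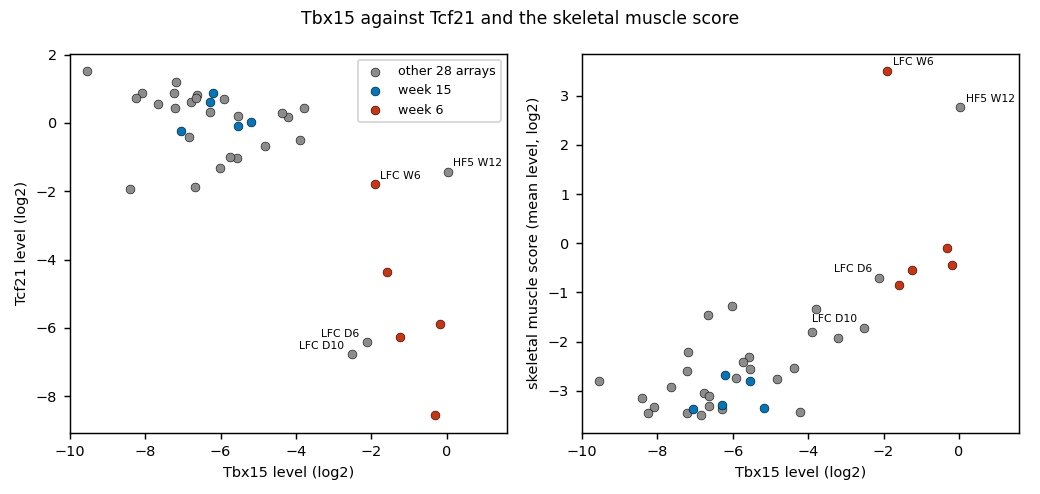
Level of Tcf21 (left) and the skeletal muscle score (right) against the level of Tbx15 (all log2), 1 point per array, for week 6, week 15 and the other 28 arrays. LFC of days 6 and 10 lay among the arrays of week 6 in the left panel, and HF5 of week 12 lay beside LFC of week 6 in the muscle score.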

How the data were processed

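RNA labelled as that of epididymal stromal vascular cells was hybridised by the authors to 38 one-colour Agilent mouse arrays, of which the 5 of week 6 and the 5 of week 15 are compared here. Per the file headers, the deposited intensity values were made by Feature Extraction version 10.5.1.1 (the submitters' processing notes name version 9.1): the processed signal is background-subtracted and detrended within the array, and not normalised between arrays. The deposited series table, not used here, holds log2 ratios in which the authors set each array against the matching LFC array, after normalisation in GeneSpring GX.

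Levels were log2 of the processed signal minus log2 of the array's 75th percentile over the 43803 non-control spots. Outlier spots were left out, spots of a probe were averaged, and saturated spots were kept as lower bounds. At most 27 probes were missing on an array of either week. At HF75 and HFC of week 12, 5458 and 4245 probes were missing through outlier flags. Of 40628 probes, 28136 were named by sequence accession, 4982 by symbol, 1406 by a single synonym in a RefSeq gene table, and 6104 kept the name of the file. For list genes with several probes 1 probe was used. Where a probe was above background on no array of a week, the dim side was set to the lowest signal well above background on each array, which gives "at least" folds.

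The members and the 21 gene lists (301 entries, 297 on the array) were chosen with earlier results of these data known. Genes were named by rule: the 5 markers, up to 4 members apart per list, the brightest member not apart, and the 15 largest differences in each direction. Other members are named to complete a count, and a few genes that the rule picks are not reported here. Correlations used 100000 permutations with Benjamini-Hochberg adjustment at a threshold of 0.05. Samples are single arrays, so the p-values come from shuffling arrays as if these were unrelated, and they do not measure the spread between animals. Alternatives were quantile normalization and normexp correction with an offset of 50 (limma 3.58.1, R 4.3.3), other filters and leaving out each diet. Scripts ran in Python 3.11.15 with scipy 1.17.1 and were tested on simulated data. The number of arrays limits the precision.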

Additional observations from a re-analysis of the deposited data

Results flagged for a closer look

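For weeks 6 and 15, 52 groups of 5 arrays (5 marker genes and 21 list scores at each week) were examined for a single array far from the rest, and chance alone singles out about 1 in 20 groups, or 2.6 of 52. There were 3 such arrays. The skeletal muscle score of LFC at week 6 was 3.50, with the nearest array of that week at -0.11. The B cell score of HFC at week 15 was -3.07, with the nearest array at -2.01. The testis and sperm score of HFC at week 15 was -2.09, with the nearest array at -3.72.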

How the results depend on the processing

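Counts of probes apart moved with the filter and the background correction: the main counts of 2325 higher and 2658 lower became 2492 and 966 under normexp, which moved the median of all probes from -0.03 to 0.47 log2, so directions near 0 are relative to that shift. With 2 log2 as the minimum size they were 810 and 1241, and 1494 were lower among probes above background on all 10 arrays. Leaving out each diet gave 2406 to 3127 higher and 2874 to 4149 lower, the latter without LFC. Under normexp the list medians were -0.50 (visceral), -2.12 (mesothelial) and 0.16 (Hox, which reversed), and against week 3 -0.16 (subcutaneous) and -0.0784 (cell cycle), against week 9 -0.47 (subcutaneous), and against the mean of weeks 3, 9, 12 and 18 -0.25 (subcutaneous), 1.99 (B cell), 1.74 (T cell), 2.91 (Schwann cell) and -0.0391 (cell cycle). Members above background on all 10 arrays gave 0.54 (subcutaneous), -0.98 (visceral) and -0.37 (brown fat). Fabp4 turned to -0.00319 under quantile normalization and -0.10 under normexp, Hoxa6 to 0.16 and Kif11 to 0.11 under normexp. Tbx15 against the subcutaneous score became -0.0237 under quantile normalization and 0.29 without the 2 farthest arrays, against the lymph node score 0.43 when centred, against the mesothelial score -0.43 without the 2 farthest arrays, and against Tcf21 -0.38 without LFC of days 6 and 10. Pairing HF5 and HF20 of week 15 by the diet entry (week 18, swapped alike, was not re-paired), or leaving out HF75, turned no list median. The cause of these changes was not tested. Arrays were paired by diet, and no block by replicate number was fitted because the labels give none.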
